A study of Mus musculus with 30 samples.

Results

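The difference between the astrocyte and the neuron response to dexamethasone was measured in the mouse nucleus accumbens, a ventral striatal region of the brain's reward circuit. It is, for each gene, the change from saline to dexamethasone in sorted astrocytes minus the same change in sorted neurons. The 20 arrays of the astrocyte-saline, astrocyte-dexamethasone, neuron-saline and neuron-dexamethasone groups were chosen by their titles from the 30 arrays of the series, with 5 arrays in each group. The other arrays hold whole accumbens tissue and entered the normalization only. All mice were C57BL/6J, and they received either saline or 4 mg/kg dexamethasone, an agonist of the glucocorticoid receptor, by injection 4 h before the accumbens was taken. Each array held the RNA of 1 mouse, hybridised as biotinylated cRNA to an Illumina bead array. Cells were separated magnetically before RNA was prepared, so both preparations had passed through dissociation, and the labels used here give neither the ages nor the sexes of the mice. The labels also do not say whether astrocytes and neurons of one replicate number came from the same mouse.

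Glucocorticoids enter the cell and bind the glucocorticoid receptor, which is held in the cytoplasm by heat shock proteins and immunophilins. The bound receptor moves to the nucleus, where it raises some genes by binding DNA directly and lowers others, among them many inflammatory genes. Textbook direct targets include Fkbp5, whose protein restrains the receptor in turn, Tsc22d3, which encodes the leucine zipper protein GILZ, and the kinase gene Sgk1. In the brain these targets are known in both glia and neurons, so a gene's level before treatment is a natural first thing to hold beside its response.

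The labelled cell types were checked against marker lists. The mean log2 level of 22 astrocyte markers was 13.33 ± 0.11 (SD, n = 5) in astrocyte-saline and 8.74 ± 0.53 (SD, n = 5) in neuron-saline arrays. The mean of 13 neuron markers was 9.82 ± 0.22 (SD, n = 5) and 12.26 ± 0.03 (SD, n = 5) in the same groups. Oligodendrocyte markers were high in both preparations, at 13.22 ± 0.30 and 11.98 ± 0.52 (SD, n = 5 each). The neuron preparation was also higher in red cell markers (13.56 against 10.16 under saline) and in markers of dividing cells (9.58 against 6.02). The astrocyte preparation was higher in microglia markers (9.26 against 6.6 under saline) and in mural markers (8.99 against 6.62). Arrays of one group correlated with each other between 0.947 and 0.982, and 36.7% to 42.8% of probes were detected on an array.

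Of 12324 genes tested, 129 differed in their response between astrocytes and neurons at an adjusted p under 0.05 (limma, Benjamini-Hochberg over all genes). For 109 genes, 0.884% of those tested, the response was more positive in astrocytes, and for 20 genes, 0.162%, it was more negative. These are called genes with a higher and a lower difference below. On 125 of the 129 genes the difference had the same sign on all 5 chips, each of which carried 1 array of every group. Within astrocytes 304 genes rose (2.47%) and 115 fell (0.933%) in the fit of all 20 arrays. With each array centred on its median in place of quantile normalization, that split was 222 to 34. In neurons 2 genes rose (0.0162%) and 26 fell (0.211%) in the fit of all 20 arrays. Neuron calls below are from that fit unless stated. A fit of the 10 neuron arrays alone called 0 genes higher and 0 lower. With chip as a block, the neuron counts became 1 and 14 and the count of lower differences 31, while the higher differences numbered 127. The 2 arms share one estimate of the spread for each gene, so their standard errors are equal, with a median of 0.196 on the log2 scale.

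Most of the difference lay in the astrocyte arm. A gene was assigned to an arm where its response there was at least 2 times as large in size as in the other preparation. By that rule 88 of the 109 higher differences (80.7%) were carried by the astrocyte arm, 11 by both arms and 10 by the neuron arm. Of the 20 lower differences, 15 were carried by the astrocyte arm, 5 by both and 0 by the neuron arm. On the astrocyte side, 96 of the 109 genes were called for the astrocyte response, and saline and dexamethasone arrays did not overlap in 97 of the 109. In neurons the groups overlapped for 99 of the 109, and the 95% interval of the neuron response held 0 for 80, lay above 0 for 4 and lay below 0 for 25. These counts include 11 of the 109 genes, and the arm counts also 3 of the 20, that were not detected on any neuron array. A neuron response of such a gene has no measured size, so its arm and interval are descriptions. No count without these genes is given. The genes were selected by the difference on these same arrays. Counts of groups that overlap or stand apart, here and below, are therefore descriptions. They were not made over all genes. The gene just inside the threshold was Smoc1, with a difference of 0.88 and an adjusted p of 0.048 (limma). Just outside it stood Fbf1, with 1.14 and 0.0517. The scatter of the responses shows these arms as a row of points along the astrocyte axis and a short column below 0 on the neuron axis.

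**Figure D1:**
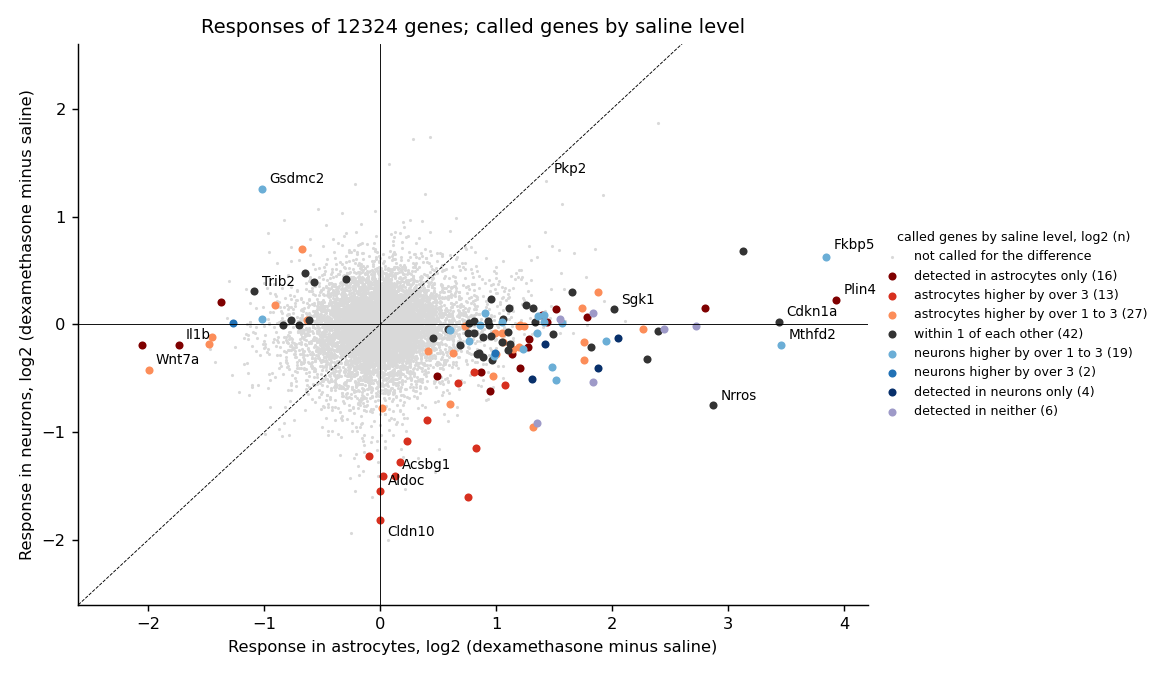
Response of each of 12324 genes in astrocytes (horizontal, log2 dexamethasone minus saline) against its response in neurons (vertical, same scale). Coloured points are the 129 genes called for the difference, coloured by saline level, the dashed line marks equal responses, and the 88 higher-difference genes of the astrocyte arm lie between -0.75 and 0.68 on the neuron axis.

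Genes were then sorted by their saline levels into 8 classes. A gene counted as detected in a preparation where its probe passed background on at least 3 of 5 saline arrays, and genes detected in both were split by the log2 difference between astrocytes and neurons. A level within 1 of each other is called like here. The saline difference and the difference of responses share the saline arrays, so no correlation between them is given. At saline, 3514 genes (28.5%) were higher in astrocytes and 4089 (33.2%) were lower (limma, adjusted p under 0.05).

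Genes with a higher difference were found in all 8 saline classes. Of the 109 genes, 47 (43.1%) were detected in astrocytes only or were higher there by over 1. Another 56 (51.4%) were at like levels (34 genes), higher in neurons (18) or detected in neurons only (4), and all 56 were carried by the astrocyte arm. The other 6 were detected in neither preparation under saline. That was 0.886% of the 677 such genes tested. A gene of this class passes the detection filter mainly through groups where it is high after dexamethasone, so its calls are a description. Under saline the mean was higher in neurons for 43 of the 109 genes, and after dexamethasone it was higher in neurons for 10. For genes selected by a higher difference this count cannot rise, so its fall is a description of the selection.

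By class, the share with a higher difference ran from 0.381% to 5.22%, beside 0.884% of all genes. It was 0.512% of 6639 genes at like levels, 1.72% of 1219 genes higher in astrocytes by over 1 to 3, and 1.28% of 1329 genes higher in neurons by over 1 to 3. The highest share, 13 of 249 genes or 5.22%, was that of genes higher in astrocytes by over 3. In that class none of the 13 was carried by the astrocyte arm, 9 were carried by the neuron arm and 4 by both. Its median response was -0.06 in astrocytes and -0.44 in neurons, beside -0.01 and -0.01 over all genes. By chip, the neuron median of that class was -0.55, 0.09, -0.82, -0.24 and -0.81 on chips 1 to 5. The share of genes that rose within astrocytes was closer between classes, at 2.03% for like levels, 4.27% for astrocytes higher by over 1 to 3, 3.09% for neurons higher by over 1 to 3 and 2.01% for astrocytes higher by over 3.

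**Figure D2:**
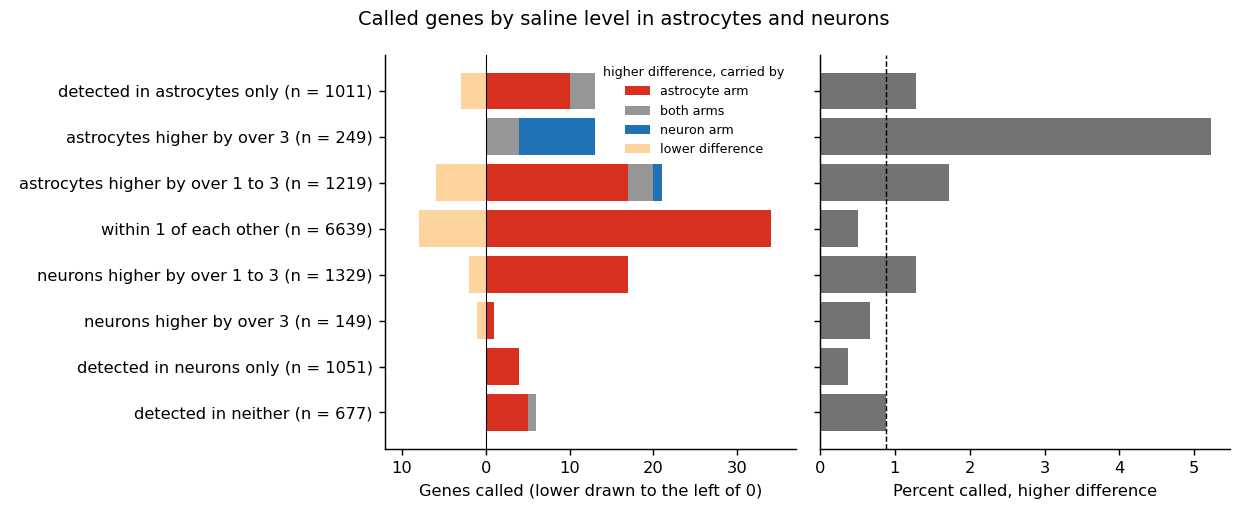
Left, number of genes called for the difference in each of the 8 saline classes, with higher differences coloured by the arm that carries them and lower differences drawn to the left of 0. Right, percent of each class with a higher difference, with the dashed line at 0.884% for all genes; neuron-arm genes appear in the classes with higher astrocyte levels, and the 34 like-level genes are all astrocyte-arm.

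Among the 34 genes at like saline levels, the groups did not overlap in astrocytes for 33 and overlapped in neurons for 32. Cdkn1a, which encodes the cell cycle inhibitor p21, is an example. Its log2 level was 9.18, 8.91, 7.91, 8.85 and 8.83 on the astrocyte-saline arrays of replicates 1 to 5, and 12.28, 12.35, 12.21, 12.30 and 11.74 after dexamethasone. In neurons it was 8.72, 9.28, 9.14, 8.78 and 9.53 under saline and 8.82, 9.12, 8.92, 9.31 and 9.41 after dexamethasone. All astrocyte-dexamethasone arrays stood above every other array, and the 3 other groups overlapped. Astrocytes rose by 3.44 (SE 0.21), a fold of 10.8, the neuron response was 0.03 (95% interval -0.41 to 0.47), and the difference was 3.41 (SE 0.30, limma adjusted p = 2.92e-06).

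Nrros encodes a membrane protein that holds latent transforming growth factor beta and is known from microglia. Its level was 9.18, 8.16, 9.39, 8.40 and 8.15 in astrocyte-saline arrays and 11.78, 11.74, 11.73, 11.43 and 10.96 after dexamethasone. Neuron arrays held 7.86, 7.86, 7.67, 8.22 and 7.97 under saline and 7.22, 7.65, 6.81, 7.25 and 6.90 after dexamethasone. The astrocyte groups lay far apart and the neuron groups did not overlap, with dexamethasone below saline. The difference was 3.62 (SE 0.34, limma adjusted p = 3.89e-06), of which 2.87 came from astrocytes, and the neuron response of -0.75 (95% interval -1.24 to -0.25) was not called there (adjusted p = 0.37). The 15 microglia markers had a mean of 9.26 ± 0.29 in astrocyte-saline and 9.32 ± 0.10 in astrocyte-dexamethasone arrays (SD, n = 5 each), and 0 of them rose or fell in astrocytes. Microglia are thus part of this preparation, and their part in the rise of Nrros was not tested.

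Sgk1 encodes a kinase that controls ion channels and transporters. It was well measured in both preparations. Astrocyte-saline arrays held 11.86, 11.39, 12.19, 12.23 and 11.91, and astrocyte-dexamethasone arrays 14.11, 13.87, 13.98, 13.94 and 13.74. Neuron arrays held 12.18, 12.69, 12.35, 12.64 and 12.39 under saline and 12.55, 12.60, 12.58, 12.46 and 12.76 after dexamethasone. Under saline the neuron mean was the higher one by 0.53, yet astrocytes rose by 2.01 (SE 0.14) and the neuron response was 0.14 (95% interval -0.16 to 0.44). The difference was 1.87 (SE 0.20, limma adjusted p = 2.34e-05). The promoter windows of Sgk1 and of Tsc22d3, described further on, are shown because they belong to textbook targets of the receptor that were called for the difference and hold its DNA hexamer AGAACA, which reads TGTTCT on the other strand. They run from 250 bases before to 50 bases after the transcription start, 5′ to 3′ of the gene, from RefSeq on GRCm38.p6, and capitals mark each hexamer.
Sgk1, chr10:21993640-21993939, plus strand: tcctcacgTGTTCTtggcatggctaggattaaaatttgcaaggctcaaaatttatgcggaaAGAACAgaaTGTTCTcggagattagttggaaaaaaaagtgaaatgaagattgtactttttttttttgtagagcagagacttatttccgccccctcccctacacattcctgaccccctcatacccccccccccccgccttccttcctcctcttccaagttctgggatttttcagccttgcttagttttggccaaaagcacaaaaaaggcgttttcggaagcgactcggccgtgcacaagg
Tsc22d3, chrX:140600473-140600772, minus strand: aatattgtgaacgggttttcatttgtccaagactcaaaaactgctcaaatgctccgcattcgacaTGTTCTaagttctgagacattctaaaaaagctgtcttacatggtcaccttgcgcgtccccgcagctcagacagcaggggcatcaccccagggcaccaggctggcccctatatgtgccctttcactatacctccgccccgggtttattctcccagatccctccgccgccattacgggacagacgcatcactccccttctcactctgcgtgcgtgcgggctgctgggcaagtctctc
The Sgk1 window, 1 of 6 in the table for that gene, holds the hexamer at -242, -189 and -180 from the start, and the latter pair forms the palindrome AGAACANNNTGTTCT. The Tsc22d3 window, 1 of 3, holds it at -185.

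Map3k6, a kinase of the stress-activated MAP kinase cascade, was at like levels too. Astrocyte arrays held 8.25, 7.52, 7.98, 8.50 and 7.41 under saline and 11.17, 11.02, 11.20, 11.39 and 10.52 after dexamethasone. Neuron arrays held 7.62, 8.73, 8.60, 7.87 and 8.31, and then 8.68, 8.48, 8.82, 9.25 and 9.30. The astrocyte groups were separate, and the neuron groups overlapped. Astrocytes rose by 3.13, the neuron response of 0.68 had an interval above 0 (0.16 to 1.20) but was not called (limma adjusted p = 0.547), and the difference was 2.45 (SE 0.35, adjusted p = 6.96e-04).

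Errfi1 encodes a feedback inhibitor of the epidermal growth factor receptor, and its saline means were the closest of these, 10.34 in astrocytes and 10.37 in neurons. Astrocyte arrays held 10.72, 9.91, 10.41, 10.28 and 10.36 under saline and 11.84, 11.36, 12.08, 11.82 and 11.15 after dexamethasone. Neuron levels ran from 10.20 to 10.56 under saline and from 10.37 to 10.66 after dexamethasone. Only the astrocyte-dexamethasone arrays stood apart, and the difference was 1.16 (SE 0.23, limma adjusted p = 0.0139). Pla2g3, a secreted phospholipase, differed by 2.45 (SE 0.28, adjusted p = 4.98e-05) with a neuron response of -0.06 (95% interval -0.48 to 0.36). The stress-inducible growth arrest gene Gadd45g differed by 1.29 (adjusted p = 0.00309), and the potassium channel subunit gene Kcng2 by 2.62 (adjusted p = 0.00175).

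**Figure D3:**
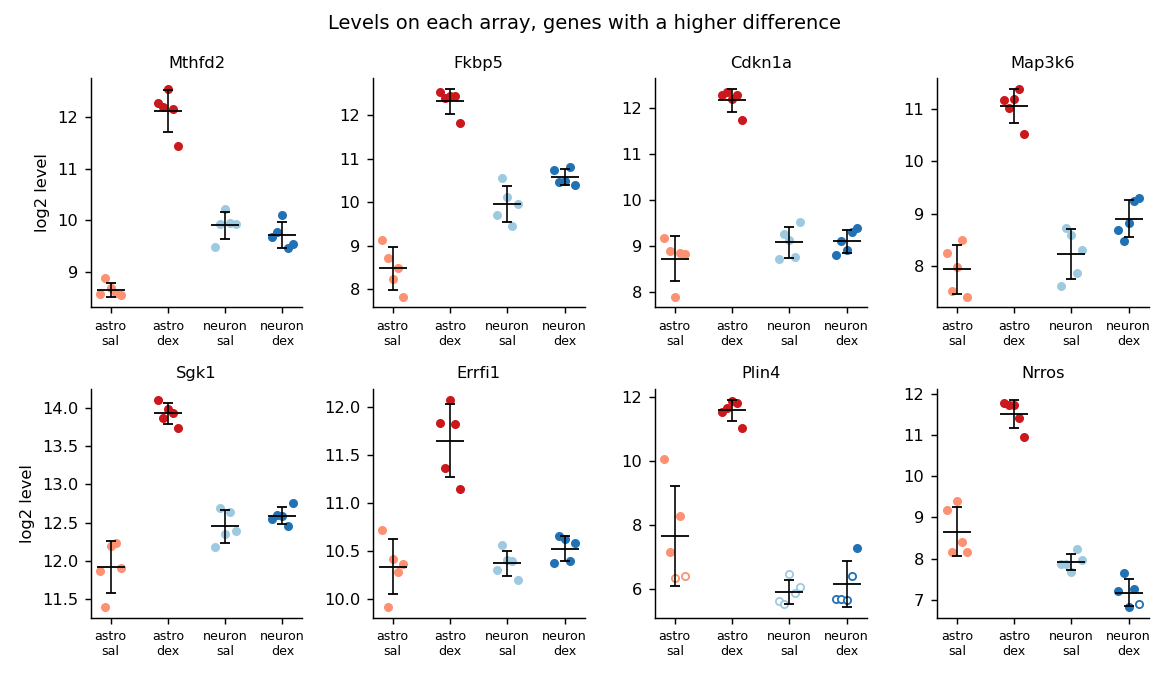
Log2 level on each array for 8 genes with a higher difference, in the 4 groups of 5 arrays. Filled points are detected and open points not detected, and bars give the mean and SD; for Mthfd2 and Fkbp5 astrocytes start below neurons under saline and end above them, and in the other 6 genes as well the astrocyte-dexamethasone arrays are the highest.

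In 18 genes the neuron level was higher by over 1 under saline, and in all 18 the astrocyte groups did not overlap and the neuron groups overlapped. After dexamethasone, astrocytes had the higher mean in 11 of them and neurons in 7. The selection by a higher difference allows a change in that direction only. Mthfd2 is the mitochondrial folate enzyme that is low in most adult tissues. Astrocyte-saline arrays held 8.57, 8.88, 8.70, 8.59 and 8.56, and astrocyte-dexamethasone arrays 12.26, 12.18, 12.54, 12.15 and 11.43. Neuron arrays held 9.49, 9.93, 10.22, 9.94 and 9.92 under saline and 9.68, 9.77, 10.10, 9.46 and 9.55 after dexamethasone. Astrocytes thus went from below every neuron array to above every one. They rose by 3.45 (SE 0.18), the neuron response was -0.19 (95% interval -0.56 to 0.18), and the difference of 3.64 (SE 0.25) had the smallest p of all genes (limma adjusted p = 9.26e-08).

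Fkbp5 encodes the immunophilin that lowers the hormone affinity of the glucocorticoid receptor. It was lower in astrocytes under saline, at 9.13, 8.71, 8.24, 8.50 and 7.83, than in neurons, at 9.70, 10.55, 10.12, 9.45 and 9.96. After dexamethasone astrocytes held 12.53, 12.39, 12.44, 12.44 and 11.82, and neurons 10.75, 10.46, 10.49, 10.82 and 10.40. The astrocyte groups were far apart, while the highest neuron-saline array lay among the neuron-dexamethasone arrays. Astrocytes rose by 3.84 (SE 0.22), a fold of 14.4. The neuron response of 0.63 (95% interval 0.17 to 1.09) was not called over all genes (limma adjusted p = 0.507), and the difference was 3.22 (SE 0.31, adjusted p = 7.11e-06).

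Plcl2, an inositol phosphate binding protein related to phospholipase C, and Islr2, a leucine-rich repeat protein of developing axons, stayed below neurons after their rise. Plcl2 went from a mean of 8.21 ± 0.38 to 9.62 ± 0.16 (SD, n = 5) in astrocytes, with 11.11 ± 0.10 and 11.20 ± 0.07 in neurons. The difference was 1.33 (SE 0.20, limma adjusted p = 0.00122). Islr2 differed by 1.25 (SE 0.26, adjusted p = 0.0176), with neuron levels 3.24 above astrocytes under saline. For 2900002G04Rik, which has no stated role here, the difference was 1.55 (SE 0.17, adjusted p = 2.34e-05), and the astrocyte mean after dexamethasone reached the neuron means within the range of arrays. Its neuron arrays held 10.26, 10.22, 10.14, 10.51 and 10.10 under saline and 10.25, 10.19, 10.20, 10.45 and 10.22 after dexamethasone.

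Several genes were not above background on any astrocyte-saline array, so only a lower bound can be given for their rise there. Klrg2, a lectin-like gene of the killer cell receptor family, went from levels of 5.49 to 6.53, all not detected, to 8.58, 9.09, 9.14, 8.88 and 8.48, an increase of at least 4.28-fold, and was not detected on any neuron array. The bounds come from each array's lowest detected signal. Adamtsl2, an extracellular protein of the ADAMTS-like family, rose at least 2.26-fold in astrocytes, and Slc37a1, a sugar phosphate exchanger, at least 1.90-fold. Fam83d, a mitotic spindle protein, rose at least 1.54-fold, and Abca4, a retinoid transporter of photoreceptors, at least 1.36-fold. Adamtsl2, Slc37a1 and Fam83d had been detected on 3, 3 and 4 of 5 neuron-saline arrays, and all 3 were called for the difference (limma adjusted p of 0.0062, 3.88e-05 and 0.0033). Plin5, which coats lipid droplets at mitochondria, was detected on 1 astrocyte-saline array and on all 5 astrocyte-dexamethasone arrays, and its difference was 2.48. Klrg2, Abca4 and Plin5 passed the detection filter through the astrocyte-dexamethasone arrays, where they are high, so their calls are descriptions and support nothing. The other detected probe of Slc37a1 had a difference of -0.37 (limma adjusted p = 0.759), opposite in sign to the 2.18 of the probe used. In all, 11 of the 109 genes with a higher difference and 3 of the 20 with a lower one were not detected on any neuron array, so their neuron response has no measured size.

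Plin4, another coat protein of lipid droplets, had the largest difference, 3.70 (SE 0.74, limma adjusted p = 0.0137). Astrocyte-saline arrays were spread over 10.06, 7.17, 6.34, 8.29 and 6.40, with the arrays of replicates 3 and 5 not detected. After dexamethasone they held 11.53, 11.66, 11.88, 11.81 and 11.03, above every saline array. Neuron levels were between 5.53 and 7.30, and the gene was detected on 1 neuron array, that of neuron-dexamethasone replicate 5. The difference per chip ran from 1.40 to 6.37, and without chip 2, 3 or 4 it was 3.55, 3.04 and 3.88 and no longer called (adjusted p of 0.0912, 0.189 and 0.0844).

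Of the genes detected in astrocytes only or higher there, the astrocyte arm carried 27 and both arms 10. Tcim, a small positive regulator of Wnt signalling, rose from 5.96 to 7.73 across saline arrays to 9.59 to 10.36, with no neuron array above background, and differed by 2.64 (SE 0.36, limma adjusted p = 3.80e-04). Hs3st3b1, a heparan sulfate sulfotransferase, was at least 2.85-fold higher in astrocytes than in neurons under saline and differed by 1.71 (adjusted p = 0.00175). Farp2 differed by 2.31 (SE 0.21, adjusted p = 3.89e-06), and the repressor gene Hr, known for hair follicle cycling, by 2.09 (SE 0.21, adjusted p = 1.36e-05). Rhou differed by 1.92, Arrdc2, an arrestin-like adaptor, by 1.59, and Mfsd2a, the transporter of lysophospholipids with docosahexaenoic acid, by 1.46 (adjusted p of 0.00175, 0.00974 and 0.00853).

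Tsc22d3 was high in both preparations. Astrocyte arrays held 14.58, 14.10, 14.20, 13.83 and 13.74 under saline and 15.11, 15.01, 15.22, 15.35 and 15.01 after dexamethasone. In neurons the levels were 11.59, 11.88, 11.99, 11.57 and 12.35, and then 11.52, 11.92, 11.43, 12.02 and 12.10. The astrocyte groups were separate and the neuron groups overlapped. Its difference of 1.13 (SE 0.25, limma adjusted p = 0.0307) was not called with chip as a block (adjusted p = 0.0694). Another detected probe of Tsc22d3 had a difference of 1.73 (limma adjusted p = 0.00275).

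In the 10 genes of the neuron arm, the astrocyte saline level was higher by over 1 in all 10, and the astrocyte response lay between -0.10 and 0.76. The neuron response lay between -0.77 and -1.81, and 9 of the 10 genes fell in neurons. They include Aldoc, the glycolytic aldolase of astrocytes, Cldn10, a claudin, and Acsbg1, an acyl-CoA synthetase, all on the astrocyte marker list. Cldn10 held 10.47, 8.98, 10.87, 9.83 and 11.01 in neuron-saline and 8.02, 8.90, 8.38, 8.66 and 8.13 in neuron-dexamethasone arrays, while its astrocyte means were 15.15 and 15.15. Its neuron groups did not overlap, but on chip 2 the pair differed by little, and the difference of responses on that chip was -0.02. The difference was 1.81 (SE 0.40, limma adjusted p = 0.0275).

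Aldoc held 11.84, 10.76, 12.27, 11.53 and 12.45 in neuron-saline and 9.76, 10.85, 9.66, 10.67 and 10.21 in neuron-dexamethasone arrays, groups that overlap through replicate 2. In astrocytes it lay within 0.5 of the highest level of the arrays, 16.06, on every array, so a rise there had little room to show. Its difference of 1.54 (SE 0.36, adjusted p = 0.0422, limma) and that of Acsbg1, 1.53 (SE 0.37, adjusted p = 0.0476), were not called with chip as a block (0.0811 and 0.0866). Pdlim4, an actin-associated protein, differed by 1.44 (SE 0.27, adjusted p = 0.00868), and 1600032L17Rik, which has no stated role here, by 2.36 (SE 0.47, adjusted p = 0.013). The other genes of this arm, Fam20a, Ptprz1, Fgf1, Myorg and Cst3, are named after their values were seen. Further detected probes of these genes often gave less: the second probe of Aldoc had a difference of -0.02 (limma adjusted p = 0.999) and that of 1600032L17Rik 0.56 (adjusted p = 0.765). Those of Fam20a, Fgf1 and Ptprz1 had 0.59, 0.42 and 0.31, none of them called, against 1.45, 1.29 and 1.31 for the probes used. Further probes of Cldn10 had 2.04 and 1.68, and that of Acsbg1 had 1.25, none of them called either.

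Astrocyte markers were also lower in the neuron preparation after dexamethasone. The list holds Aldoc, Cldn10 and Acsbg1 themselves, and no mean without them was computed, so part of the likeness is built in. The mean of the 22 markers was 8.73, 8.07, 9.16, 8.40 and 9.36 in neuron-saline and 7.36, 8.06, 7.48, 7.95 and 7.67 in neuron-dexamethasone arrays of replicates 1 to 5. The dexamethasone arrays were all lower than the saline arrays, although on chip 2 the pair was nearly equal. In neurons 21 of 22 markers had a negative response and 8 fell, with a list median of -1.12. In astrocytes 0 rose or fell, and the list means were 13.33 and 13.33. The neuron-saline array of replicate 2 was the lowest of its group in 8 of the 10 neuron-arm genes, and that of replicate 5 the highest in 8. All 26 genes that fell in neurons had an astrocyte saline level higher by over 1, and 21 by over 3. Oligodendrocyte markers also had a lower mean in neuron-dexamethasone (11.43 ± 0.39) than in neuron-saline arrays (11.98 ± 0.52, SD, n = 5 each), with 0 of 10 called. Mural markers, low in neurons, went from 6.62 ± 0.11 to 6.25 ± 0.13, groups that did not overlap, and were lower on all 5 chips. Endothelial markers went from 10.73 ± 0.26 to 10.38 ± 0.42 and oligodendrocyte precursor markers from 9.27 ± 0.34 to 8.98 ± 0.33, groups that overlap. The part of these markers in the neuron-arm genes was not tested, and fewer cells of a type and less RNA per cell cannot be told apart in such preparations.

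**Figure D4:**
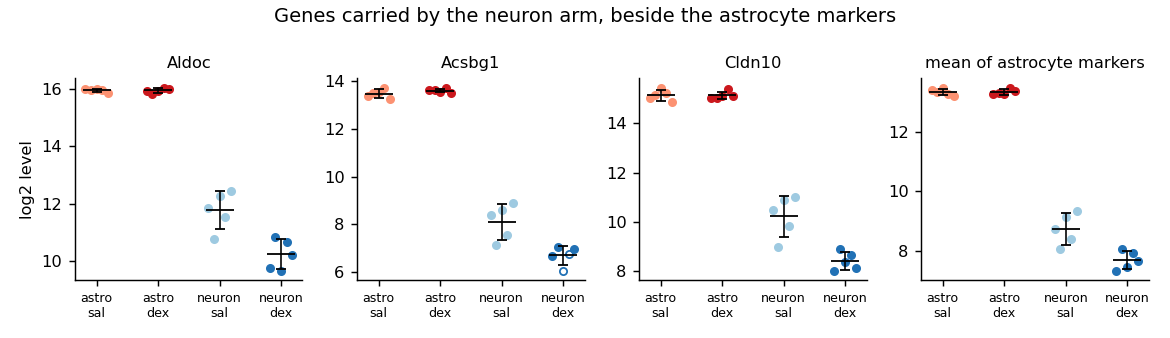
Log2 level on each array for Aldoc, Acsbg1 and Cldn10, and the mean of the 22 astrocyte markers, in the 4 groups of 5 arrays, with bars for mean and SD and open points where not detected. The marker mean includes Aldoc, Acsbg1 and Cldn10. Astrocyte arrays are level between treatments, and the neuron-dexamethasone arrays lie lower than most neuron-saline arrays in all 4 panels.

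The 20 lower differences included 8 genes at like saline levels, 6 higher in astrocytes by over 1 to 3, 3 detected in astrocytes only and 3 higher in neurons. The astrocyte groups were separate for 18 of them. Over the same arrays the mean of 6 choroid plexus and ependymal markers was 8.72 ± 0.67 in astrocyte-saline and 7.95 ± 0.23 in astrocyte-dexamethasone arrays (SD, n = 5 each), groups that overlap. In neurons it was 8.46 ± 0.34 and 8.45 ± 0.48. The median difference of responses of these markers was negative on every chip, from -1.51 to -0.28, with 0 of 6 called, and their part in the lower differences was not tested. Wnt7a encodes a secreted Wnt ligand with roles in vessels and synapses. It held 11.58, 11.20, 11.61, 11.32 and 11.04 in astrocyte-saline and 9.57, 9.12, 9.20, 9.21 and 9.68 in astrocyte-dexamethasone arrays. Neuron levels were 10.14, 9.33, 10.15, 10.18 and 10.04 under saline and 9.42, 9.82, 9.68, 9.17 and 9.64 after dexamethasone. Astrocytes, the higher preparation under saline, ended near the level of neurons. They fell by 1.99 on the log2 scale (SE 0.18), the neuron response was -0.42 (95% interval -0.79 to -0.05), and the difference was -1.57 (SE 0.25, limma adjusted p = 0.00183).

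Trib2, a pseudokinase, held 12.25, 12.23, 12.30, 11.67 and 12.01 in astrocyte-saline and 11.11, 10.98, 10.86, 10.88 and 11.22 in astrocyte-dexamethasone arrays. In neurons the levels were 11.37, 11.82, 11.42, 11.33 and 11.31, and then 11.65, 11.89, 11.75, 11.78 and 11.70. Astrocyte groups were separate, and neuron groups overlapped through the saline array of replicate 2. Its difference was -1.39 (SE 0.18, limma adjusted p = 3.01e-04). Il1b, the inflammatory cytokine interleukin-1 beta, fell in astrocytes from between 7.78 and 8.59 to between 5.60 and 7.0, where 3 of 5 arrays were not detected. It was not detected on any neuron array, and its difference was -1.54 (SE 0.34, adjusted p = 0.0258). Microglia markers were present in the astrocyte preparation, as given above, and the part of microglia in the fall of Il1b was not tested.

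Gsdmc2, a gasdermin family gene, was the gene with the most negative difference, -2.27 (SE 0.43, limma adjusted p = 0.00935), and both arms added to it. The astrocyte response was -1.01 (adjusted p = 0.0847) and the neuron response 1.26 (95% interval 0.62 to 1.90, adjusted p = 0.126), so it was called in neither preparation alone. Neuron-saline arrays held 9.54, 11.43, 10.13, 9.93 and 9.99 and neuron-dexamethasone arrays 11.55, 11.28, 11.50, 11.28 and 11.71, so that only the saline array of replicate 2 lay among them. Snhg11, a neuronal RNA on the neuron marker list, differed by -1.28 (SE 0.29, adjusted p = 0.0332). It fell in astrocytes by 1.27 and ranged from 13.87 to 14.35 over the neuron arrays. The mean of the neuron markers in astrocytes was 9.82 ± 0.22 under saline and 9.54 ± 0.35 after dexamethasone (SD, n = 5 each). The part of these markers in its fall was not tested. Ddit4l, a relative of the mTOR inhibitor gene Ddit4, differed by -1.29 and the zinc finger gene Sall2 by -1.09 (adjusted p of 0.00211 and 0.00327).

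Only 3 genes were called in both preparations, and they are named after their values were seen. Pkp2, a plakophilin of desmosomes, rose in both, by 1.43 in astrocytes (limma adjusted p = 0.00119) and 1.33 in neurons (adjusted p = 0.0258), with neurons 2.04 higher under saline. Its neuron rise was not called with chip as a block. Its difference was 0.10, with a 95% interval from -0.62 to 0.81. S1pr2, a receptor for sphingosine 1-phosphate, fell in both, with responses of -0.82 and -0.76. Trp53bp2, a binding partner of p53, moved in opposite directions, 0.60 in astrocytes and -0.74 in neurons, and differed by 1.33 (SE 0.20, adjusted p = 0.00122). Apart from Pkp2, the one gene that rose in neurons was 1200012P04Rik, by 1.49 (adjusted p = 0.0397), whose difference was not called (adjusted p = 0.141). With chip as a block this rise was not called either.

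A further 307 genes were called in astrocytes and not for the difference, 208 of them rising. Their median response in size was 0.85, beside a median SE of the difference of 0.277, and the neuron response had the same sign in 206. Leaving out genes called for the difference favours a shared sign. In 29 of the 307 the difference was less than 0.5 times the astrocyte response. A difference that missed the threshold does not show that the preparations responded alike.

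Glucocorticoid targets were the list with the most calls. Of 40 targets tested of 42 listed, 10 had a higher difference and 0 a lower one, against 0.884% and 0.162% of all genes. The median difference was 0.88 and the median responses were 0.87 in astrocytes and 0.11 in neurons, beside 0.00, -0.01 and -0.01 over all genes. In astrocytes 21 of the 40 rose, and in neurons 0 rose and 1, Mt1, fell. The list was chosen with earlier results of these data known. Under saline, 26 of the 40 were higher in astrocytes and 3 lower (limma, adjusted p under 0.05), against 28.5% and 33.2% of all genes. The median saline difference of the list was 1.17, beside -0.088 over all genes. The part of these saline levels in the calls was not tested. Mt1, a metallothionein, lay within 0.5 of the highest level on all astrocyte arrays. Zbtb16, a transcription factor gene, had responses of 1.42 in astrocytes (limma adjusted p = 0.00103) and 0.86 in neurons (95% interval 0.36 to 1.35), at like saline levels, and its difference of 0.57 was not called (adjusted p = 0.727). Xdh, xanthine dehydrogenase, had responses of 1.92 and 1.20 and a difference of 0.71 (adjusted p = 0.873). Angptl4, an inhibitor of lipoprotein lipase, had the larger response in neurons, 0.99 (95% interval 0.46 to 1.51) against 0.65, and neither was called. Gjb6 and Mertk, both astrocyte-enriched, had astrocyte responses of 0.47 and 0.51 and neuron responses of -1.37 and -1.15, so that their differences of 1.84 and 1.66 (adjusted p of 0.0765 and 0.0561) had more of the neuron than of the astrocyte response in them.

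**Figure D5:**
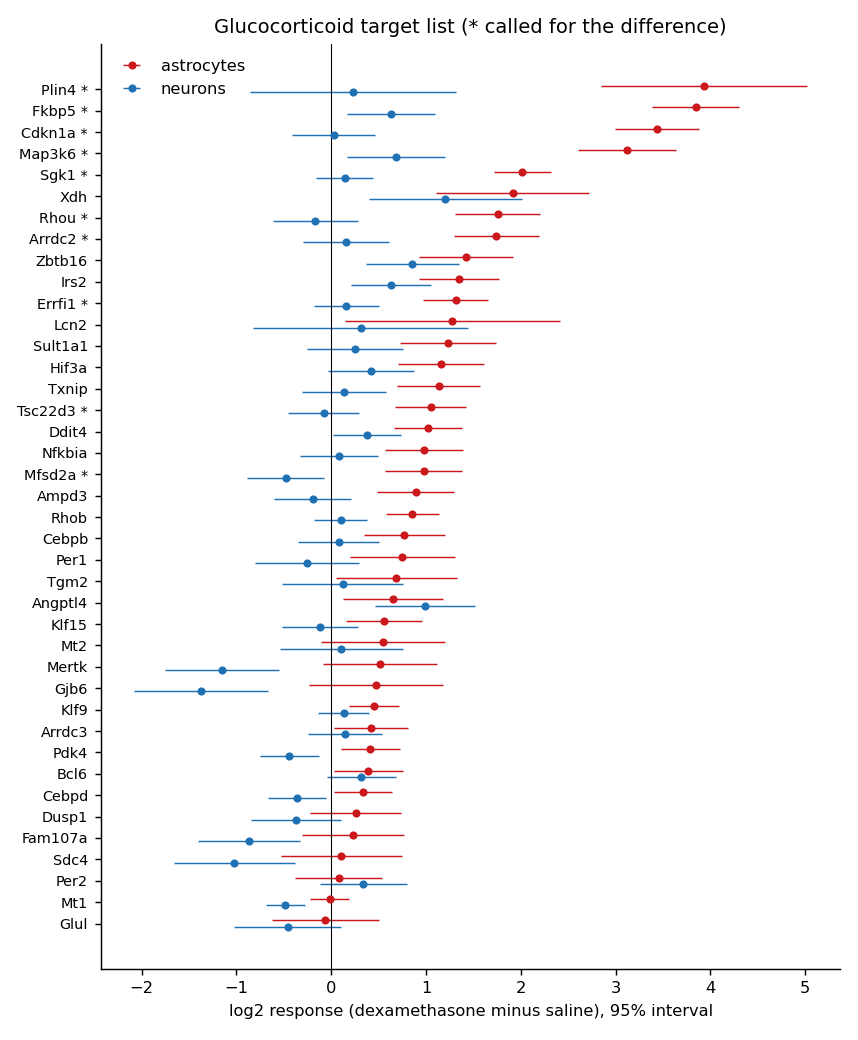
Log2 response with its 95% interval for 40 glucocorticoid targets in astrocytes (red) and neurons (blue), ordered by the astrocyte response; an asterisk marks the 10 called for the difference. Astrocyte responses are above those in neurons for most targets. Some neuron intervals lie wholly below 0, and others wholly above it, among them Fkbp5, Map3k6, Zbtb16 and Angptl4. The neuron response was below 0 for 15 of the 40.

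The receptor itself could not be compared. The probe of Nr3c1, the glucocorticoid receptor, was detected on 1 of 20 arrays, and the best probe of Nr3c2, the mineralocorticoid receptor, on 4 arrays, so neither passed the filter. Of the list of receptor, chaperone and cofactor genes, 14 of 24 were tested, and only Fkbp5 was called. Hsd11b1, the enzyme that regenerates active glucocorticoid from its inert form, was 5.32 higher in astrocytes under saline. Dexamethasone needs no such activation, and the gene's difference of 0.89 was not called (limma adjusted p = 0.545).

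Other pathway lists showed few calls. Growth restraint genes gave 2 higher differences of 23 tested (Cdkn1a and Gadd45g), lipid droplet genes 2 of 15 (Plin4 and Plin5), and serine and folate genes 1 of 14 (Mthfd2), all with 0 lower, against 0.884% of all genes higher. Plin5 is there through the detection filter, as given above. Inflammatory genes gave 1 lower of 18 (Il1b), against 0.162% of all genes. No member was called among 14 clock, 15 interferon response, 16 reactive astrocyte, 18 immediate early, 13 heat shock and 15 glutamate, GABA and potassium handling genes. In that last list 4 of 15 fell in neurons, against 0.211% of all genes, and its median response there was -0.80. The marker lists of astrocytes and neurons gave 3 higher and 1 lower difference, as above. No marker of medium spiny neurons, microglia, oligodendrocytes and their precursors, endothelial, mural, red, dividing or choroid plexus cells was called.

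The AGAACA hexamer was not more common near the start of these genes than elsewhere. A promoter window was found for 65 of the 88 higher-difference genes of the astrocyte arm, and 5 of them, or 7.69%, held it on either strand. The share was 14.8% of 9164 tested genes and 21.3% of 27025 genes of the table. Of 12 lower-difference genes of the astrocyte arm with a window, 1 (8.33%) held it. The palindrome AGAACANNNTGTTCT was found in Sgk1 and in no other of the 9164 tested genes. A match in these windows is a description of letters only.

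Within the astrocyte-dexamethasone group, the array of replicate 5 was the lowest in 50 of the 88 higher-difference genes of the astrocyte arm, with a median of 0.19 below the group mean. The other arrays of that group were lowest in 2 to 19. The order of arrays, here and for the neuron-arm genes above, was not counted over all genes. Further detected probes of called genes numbered 53, of which 50 had the same sign and 23 were themselves called, and the 3 with the opposite sign were not.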

How the data were processed

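RNA of individual mice was amplified, biotin-labelled and read on Illumina bead arrays, per the labels' protocols. The deposited table held log2 intensities of 46174 probes on 30 arrays, from 6.27 to 16.11, with array medians of 7.37 to 8.78, so it had not been normalized between arrays. The background step behind it is not given in the sources used here, and detection calls were not used because none came with the table. The authors' deposited value table was matched to log2 of the quantile-normalized log2 intensities (largest deviation 5e-10), a score with a median of 2.989 on every array, and served as an alternative.

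Intensities were background corrected with normexp (limma 3.58.1, R 4.3.3, offset 16), with 1588 probes of olfactory, vomeronasal, trace amine and taste receptors in place of negative controls, then quantile normalized over the 30 arrays. Detection was judged array by array, with p the fraction of receptor probes as bright as the probe or brighter. Of 44586 other probes, 20611 were detected (p under 0.05) on 5 or more of 20 arrays. Of all probes, 35725 had 1 gene symbol, 0 had several and 10449 none. Symbols were updated through Entrez ID for 28566 and accession for 2632 probes, and 4527 kept the platform's. The probe with the highest mean was kept for each of 12324 genes.

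One limma model with a mean for each of the 4 groups (lmFit, eBayes) gave all contrasts, two-sided, adjusted over all genes by Benjamini-Hochberg. It was tested on simulated data. Replicate numbers mark a shared chip, per the labels. Same-chip deviations from group means correlated on average by 0.20 between astrocyte groups and 0.18 between neuron groups, against -0.05 and -0.04 on different chips, so chip as a block was run as an alternative. Groups sat at the same positions on every chip, so effects of position cannot be told apart from those of group. The number of arrays limits the precision.

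Genes were named by a rule: the 12 largest differences in each direction among genes called with one sign on all 5 chips, up to 4 called genes by smallest p in each saline class, members of the 2 glucocorticoid lists, and up to 4 by smallest p of each other list. Others are said to be named after their values were seen. The comparison, genes and lists were chosen with earlier results of these data known, so lists got no test. "At least N-fold" takes the higher of the lowest detected signal and the probe's own value as the floor, array by array. Promoters came from the RefSeq table on GRCm38.p6, by symbol. Alternatives covered the arrays in the fit, background, normalization, filters, variance model, array weights and each array and chip left out.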

Additional observations from a re-analysis of the deposited data

Results flagged for a closer look

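A difference of responses is itself a test that the effect of dexamethasone differs between the preparations, and it was called for 52 of the named genes (limma, adjusted p under 0.05). The naming rule picks many of them because they were called, so that count has no weight of its own. For Klrg2, Abca4 and Plin5, which passed the filter through astrocyte-dexamethasone arrays, the calls are descriptions only. The call of Wdr63, a gene of the class detected in neither preparation under saline, is a description as well. Further probes of Slc37a1, Aldoc and 1600032L17Rik gave less, as above. Values are log2 astrocyte response minus neuron response.

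The higher differences carried by astrocytes were Plin4 3.70, Mthfd2 3.64, Nrros 3.62, Cdkn1a 3.41, Fkbp5 3.22, Klrg2 2.74, Tcim 2.64, Kcng2 2.62, Plin5 2.48, Pla2g3 2.45, Map3k6 2.45, Farp2 2.31, Adamtsl2 2.28, Slc37a1 2.18, Hr 2.09, Rhou 1.92, Sgk1 1.87, Frmpd3 1.82, Abca4 1.73, Hs3st3b1 1.71, Fam83d 1.60, Arrdc2 1.59, 2900002G04Rik 1.55, Mfsd2a 1.46, Plpp4 1.42, Rin2 1.37, Plcl2 1.33, Gadd45g 1.29, Islr2 1.25, Errfi1 1.16 and Tsc22d3 1.13. Those carried by both arms were Wdr63 2.27, Tfcp2l1 1.97, Trp53bp2 1.33 and Gm7908 1.25, the last a predicted gene whose probe may also read a related copy. Those carried by neurons were 1600032L17Rik 2.36, Cldn10 1.81, Aldoc 1.54, Acsbg1 1.53 and Pdlim4 1.44.

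The lower differences were Gsdmc2 -2.27, 2810459M11Rik -1.86, Micall2 -1.58, Wnt7a -1.57, Il1b -1.54, Trib2 -1.39, Abcd2 -1.37, Fam13c -1.33, Ddit4l -1.29, Snhg11 -1.28, Cbr3 -1.12 and Sall2 -1.09.

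Single arrays stood away from the rest of their group in 12 cases, out of 208 gene groups and 44 marker groups examined, where chance gives about 1 in 20. In astrocyte-dexamethasone replicate 5, Cdkn1a was low at 11.74 and Fkbp5 at 11.82. In astrocyte-saline replicate 3, Cdkn1a was low at 7.91. Cldn10 was high in astrocyte-dexamethasone replicate 4 at 15.41. In neuron-saline replicate 2, Trib2 was high at 11.82 and Wnt7a low at 9.33, and in neuron-saline replicate 1 Wdr63 was high at 7.91. In neuron-dexamethasone replicate 5, Farp2 was low at 8.62 and Sall2 at 9.64, while the mean of the mural markers was high at 6.47. In neuron-dexamethasone replicate 4, 2900002G04Rik was high at 10.45. The mean of the neuron markers was high in astrocyte-saline replicate 5, at 10.20.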

How the results depend on the processing

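The 109 higher and 20 lower differences, the 304 and 115 astrocyte calls and the 2 and 26 neuron calls were recomputed under each alternative. Array weights gave 167 and 50 differences and 19 and 68 neuron calls. No background correction, and the authors' value table, each gave 159 higher and 32 lower differences and 9 and 17 neuron calls. Without background correction, 90 of the 159 higher-difference genes were at saline levels not higher in astrocytes, in place of 56 of 109. Median centring gave 7 lower differences, 34 genes lower in astrocytes and 4 higher in neurons; it moved the median difference of all genes from 0.005 to 0.152, and the list medians of the receptor genes to 0.225 and of the clock genes from -0.11 to 0.052. A fit of all 30 arrays gave 12 lower differences and 6 and 49 neuron calls. With chip as a block there were 31 lower differences and 1 and 14 neuron calls, sharing 20 of the 20, 0 of the 2 and 11 of the 26 with the fit without it; Pkp2 and 1200012P04Rik were not called in neurons, and of the 52 named genes called for the difference only Aldoc, Acsbg1 and Tsc22d3 were lost. No filter on dim probes gave 1 and 15 neuron calls, detection in each group 1 higher in neurons, and an intensity trend with robust variance 5 and 45. Fits of the 10 arrays of 1 preparation gave 53 genes lower in astrocytes and 0 and 0 in neurons.

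Leaving out each array or chip gave 44 to 133 higher and 5 to 35 lower differences, 188 to 310 and 49 to 125 astrocyte calls, 0 to 30 and 0 to 69 neuron calls, and 3249 to 3523 and 3708 to 4114 saline calls. The differences were 63 and 8 without chip 1, 44 and 5 without chip 3, and 53 and 12 without chip 4. Lower differences were 11 without chip 5 and 35 without neuron-saline replicate 2. Neurons had 0 calls without chip 1 or 3. Of the 52 called genes named, 26 kept their call under every setting tried, 26 lost it under at least 1 and 0 changed sign; Acsbg1, Aldoc, Cbr3, Snhg11, Tsc22d3, Cldn10 and Frmpd3 lost it most often. Some of these settings have fewer arrays per fit and others keep all arrays, and the causes of the losses were not tested.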
